A study of Mus musculus with 6 samples.

Results

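The genes followed here encode the proteins that assemble and coat liver lipoproteins: Mttp, Apob, Apoa1, Apoa2, Apoa4, Apoa5, Apoc1, Apoc2, Apoc3 and Apoe. They are 10 of the 16426 genes listed in at least 1 of 6 liver RNA libraries, and they were found by their symbols. The genes were chosen by their role together with their measured difference between the groups, so those differences are given as a description and support no test. A short hairpin RNA (shRNA) was delivered to the mice by tail-vein injection of AAV8: 3 livers received a scrambled hairpin, and 3 received a hairpin against S1PR2, a receptor for the lipid sphingosine-1-phosphate. AAV8 is an adeno-associated virus vector that enters hepatocytes efficiently. All mice were wild type on a mixed B6:sv129 background and 7 to 12 weeks old. The series text describes them as male and as drinking dexamethasone, a synthetic glucocorticoid, at about 0.84 mg/kg over 7 days. The sample labels do not name that treatment, and it was taken as shared by both groups. On that reading the comparison holds no liver without glucocorticoid. The mice came from 2 laboratories, and the labels do not say which mouse came from which. Neither the hairpin sequence nor its promoter is stated in the sources used here. No label says that the replicates are separate animals, and the p-values therefore cover the spread between these libraries, which may be technical.

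Liver packs triglyceride and cholesterol into very low density lipoprotein (VLDL). Microsomal triglyceride transfer protein, whose large subunit Mttp encodes, loads lipid onto apolipoprotein B in the endoplasmic reticulum, and apolipoprotein B stays with the particle as its scaffold. The smaller apolipoproteins exchange between particles: apoA-I and apoA-II are the main proteins of high density lipoprotein (HDL), apoC-II activates lipoprotein lipase, apoC-III slows lipolysis and clearance, apoE binds clearance receptors, apoA-V favours lipolysis, and apoA-IV is made in intestine and, in mice, also in liver. Many of these genes lie side by side. The annotation places Apoa1, Apoc3, Apoa4 and Apoa5 next to each other on chromosome 9, and Apoc2, Apoc4, Apoc1 and Apoe on chromosome 7.

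The sequences upstream of Mttp, Apoa4 and Apoa1 are printed because these are the genes that were lowest and highest in the knockdown livers relative to scramble. Each is the 250 bases before the RefSeq start on GRCm38.p6, read 5′ to 3′ on the gene's strand, in lower case with motif matches in capitals. RefSeq promoter entries were found for 8 of the 10 genes, all but Apoc1 and Apoc3. The Mttp window is chr3:138143419-138143668 on the minus strand, the Apoa4 window chr9:46240594-46240843 on the plus strand and the Apoa1 window chr9:46228380-46228629 on the plus strand.
Mttp: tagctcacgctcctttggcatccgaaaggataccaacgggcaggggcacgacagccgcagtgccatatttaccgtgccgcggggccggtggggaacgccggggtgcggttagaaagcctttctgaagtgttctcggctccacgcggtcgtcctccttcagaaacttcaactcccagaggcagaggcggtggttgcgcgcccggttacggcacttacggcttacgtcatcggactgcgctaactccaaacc
Apoa4: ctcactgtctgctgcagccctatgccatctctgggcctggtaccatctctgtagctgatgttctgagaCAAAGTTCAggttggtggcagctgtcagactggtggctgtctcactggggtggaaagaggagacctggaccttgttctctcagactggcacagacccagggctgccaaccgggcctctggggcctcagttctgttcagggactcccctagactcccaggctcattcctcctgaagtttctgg
Apoa1: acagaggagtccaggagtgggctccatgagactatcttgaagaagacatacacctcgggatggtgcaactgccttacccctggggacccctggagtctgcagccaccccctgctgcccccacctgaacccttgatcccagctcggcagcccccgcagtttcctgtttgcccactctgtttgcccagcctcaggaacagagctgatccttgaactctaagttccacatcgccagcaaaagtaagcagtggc
A set of 5 motifs was searched on both strands: CAAAGTNCA (HNF4 type), CACGTG (E-box), TATAAA (the TATA box), GTTAAT (HNF1 half-site) and TGTTTAC (forkhead type). The matches named here do not overlap one another. The Apoa4 window holds CAAAGTNCA starting 182 bases before the start, on the gene's strand. That motif occurs in 1.19% of all 32851 windows of 250 bases. The Mttp and Apoa1 windows hold none of the 5, which says only that these letters are not in these bases. Elsewhere, TATAAA (12.4% of all windows) lies 60 bases before the Apob start, and CACGTG (6.02% of all windows) lies 82 bases before the first of the Apoa5 starts, whose window also holds TATAAA at 31 bases. GTTAAT (6.43% of all windows) lies 89 bases before the Apoc2 start and TGTTTAC (3.17% of all windows) 77 bases before the first Apoa2 start. The GC content is 61.2% for Mttp, 58% for Apoa1 and 57.6% for Apoa4, against a median of 52.4% over all windows. A match is a string of letters, and nothing about binding was measured here.

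The libraries held 16558775 to 17410160 expected counts, which are the fragments assigned to each gene, and levels are given below as CPM, counts scaled to a common library size with trimmed-mean (TMM) factors. The hairpin's target was lower in each knockdown liver: S1pr2 stood at 4.41, 5.23 and 6.66 CPM in the scramble livers and at 3.04, 2.20 and 2.22 CPM in the knockdown livers. Its log2 fold change was -1.12 (SE 0.24; adjusted p = 0.0301 by the edgeR quasi-likelihood test), while an exact two-sided permutation test over the 20 assignments gave p = 0.1, the smallest possible with 3 against 3. Without 1 liver the edgeR adjusted p of S1pr2 ran from 0.0368 to 0.117 and the call was lost without scramble liver 2 or 3 (log2 fold change -1.16 and -0.95) or knockdown liver 2 or 3 (-1.04 and -1.05). Hepatocyte markers dominated all libraries, with 180200 to 201600 summed CPM over 12 genes in scramble and 119000 to 157000 CPM in knockdown livers. Knockdown liver 1 had the largest TMM factor (1.154) and the lowest hepatocyte sum.

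Of the 10 genes, 3 were called lower in knockdown livers at an edgeR adjusted p under 0.05 (Mttp, Apoa4 and Apoc3) and 0 were called higher. Among all 12230 genes tested, 7.66% were called in either direction, 4.64% lower and 3.02% higher. The groups did not overlap for 5 of the 10 genes, against 31.9% of all genes tested. Since the difference itself was known when the genes were chosen, nothing is read from these counts. Of the 10 log2 fold changes, 7 were below 0. Their median was -0.27, beside 0.01 over all genes. The lower share of calls over all genes differed between analyses. It was 60.6% of 937 calls with TMM and 48.5% of 982 calls with upper-quartile factors. On FPKM it was 30.8% of 824 and 30.6% of 794 calls with a pseudocount of 0.1 and 1. The FPKM runs also used another test and filter, so they do not show the part of scaling alone. The median log2 fold change of all genes on those FPKM scales was 0.16 and 0.10, so the FPKM comparisons are read relative to that shift.

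**Figure D1:**
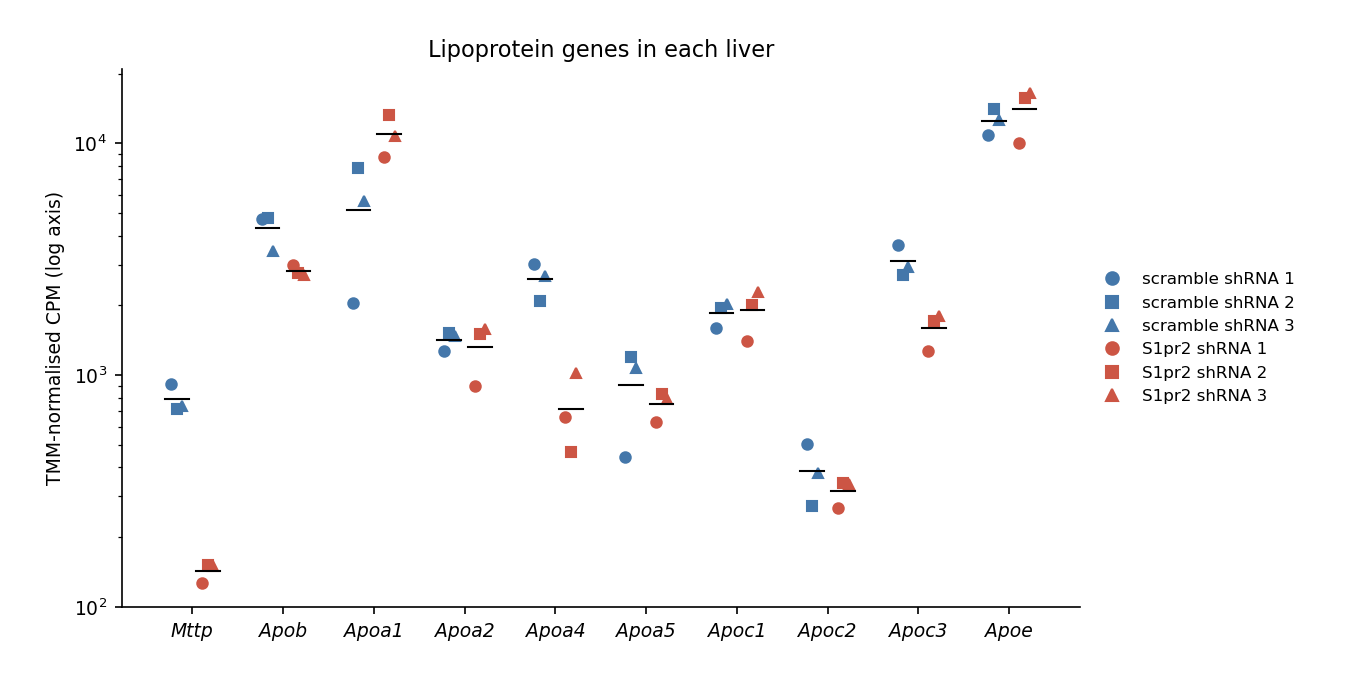
TMM-normalised CPM (vertical log axis) of the 10 genes in each of 3 scramble and 3 S1pr2 shRNA livers, with the group mean as a black bar. The Mttp points of the groups lie far apart (716 to 917 against 127 to 152 CPM), Apoa1 spans 2057 to 7807 CPM within scramble livers alone, and Apoc1, Apoa2 and Apoe overlap.

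The lipid-loading step showed the widest separation. Mttp (Entrez gene 17777) stood at 917, 716 and 737 CPM in scramble livers 1 to 3 and at 127, 152 and 149 CPM in knockdown livers 1 to 3. Each scramble liver was thus far above each knockdown liver, and the livers of each group lay close together. The mean fell from 790 ± 110 to 143 ± 13.6 CPM (SD, n = 3 each), a log2 fold change of -2.47 (SE 0.16), or 5.54-fold lower. These levels rested on 11511 to 14971 counts in scramble and 2477 to 2553 counts in knockdown livers. Counting error is thus small beside the difference between the groups. The Mttp call was kept under all 15 alternative analyses, with log2 fold changes from -2.55 to -2.29.

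Apob (238055), the scaffold that MTP loads, differed far less. Its level was 4730, 4753 and 3428 CPM in scramble and 2992, 2763 and 2708 CPM in knockdown livers. The groups did not overlap, although scramble liver 3 lay closer to the knockdown livers than to the other scramble livers. The mean was 4304 ± 758 CPM in scramble and 2821 ± 151 CPM in knockdown livers (SD, n = 3 each), a log2 fold change of -0.61 (SE 0.19) that was not called by edgeR. The ratio of Apob to Mttp in FPKM, which is scaled to transcript length, was 1.46, 1.88 and 1.32 in scramble livers and 6.65, 5.15 and 5.12 in knockdown livers. The ratio was higher in each knockdown liver than in any scramble liver. P4hb, the protein disulfide isomerase that forms the small subunit of MTP, stood at 1347 ± 65.4 CPM in scramble and 1242 ± 43.1 CPM in knockdown livers (SD, n = 3 each) and did not pass the test (log2 fold change -0.12 ± 0.14 SE, adjusted p = 0.681). P4hb was singled out after its values were seen.

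**Figure D2:**
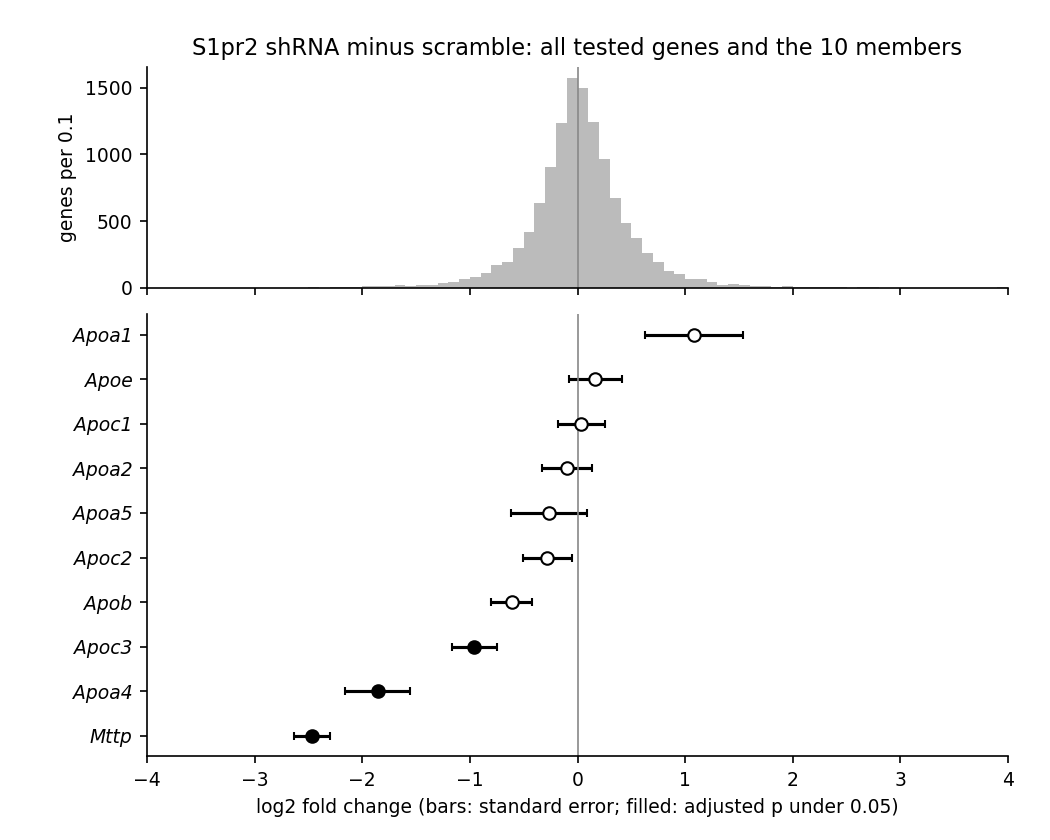
Upper panel, log2 fold changes (S1pr2 shRNA minus scramble, edgeR) of the 12230 genes tested, as genes per bin of 0.1; lower panel, the 10 lipoprotein genes on the same horizontal axis, bars showing 1 standard error and filled points an adjusted p under 0.05. Mttp at -2.47, Apoa4 at -1.86 and Apoc3 at -0.96 are filled, and Apoa1 is the only gene above 1.

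Neither gene of the main HDL apolipoproteins was called. Apoa1 (11806), which encodes the main HDL protein, was at 2057, 7807 and 5644 CPM in scramble livers and 8775, 13307 and 10746 CPM in knockdown livers. The groups did not overlap, yet the scramble livers differed among themselves by 3.79-fold, and the highest of them lay near the lowest knockdown liver. The mean was 5170 ± 2904 CPM in scramble and 10943 ± 2272 CPM in knockdown livers (SD, n = 3 each), a log2 fold change of 1.08 (SE 0.45) that edgeR did not call. Without scramble liver 1 it was 0.70, and without scramble liver 2 it was 1.49. A coefficient of variation (CV) of 56.2% in scramble livers set Apoa1 apart from the median of 11.6% over the 1236 genes with at least 100 CPM. Apoa2 (11807), which encodes the other major HDL protein, was at 1270, 1520 and 1482 CPM in scramble and 897, 1509 and 1577 CPM in knockdown livers. Its groups overlapped, with a log2 fold change of -0.10 (SE 0.23). It was 0.11 without knockdown liver 1 and -0.25 without knockdown liver 3.

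Apoa4 (11808) was lower in all knockdown livers. It stood at 3010, 2096 and 2680 CPM in scramble livers and 663, 464 and 1021 CPM in knockdown livers. The highest knockdown liver remained well below the lowest scramble liver. The mean fell from 2596 ± 463 to 716 ± 282 CPM (SD, n = 3 each), a log2 fold change of -1.86 (SE 0.30), or 3.63-fold lower, and the call was kept under all 15 alternatives (-2.21 to -1.63). Apoa5 (66113), whose product favours triglyceride clearance, was at 442, 1198 and 1071 CPM in scramble and 630, 832 and 793 CPM in knockdown livers. All knockdown livers lay inside the scramble range, because scramble liver 1 was 2.71-fold below scramble liver 2. The log2 fold change was -0.27 (SE 0.35), -0.59 without scramble liver 1 and -0.03 without scramble liver 2.

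Apoc3 (11814), the lipase inhibitor of the apoC group, was at 3656, 2716 and 2920 CPM in scramble livers and 1277, 1712 and 1794 CPM in knockdown livers. The groups did not overlap. The mean fell from 3097 ± 494 to 1594 ± 278 CPM (SD, n = 3 each), a log2 fold change of -0.96 (SE 0.21), or 1.94-fold lower. Its call was fragile: the edgeR adjusted p was 0.068, 0.0604 and 0.0798 without scramble liver 1, 2 or 3, and 0.107 and 0.0793 without knockdown liver 2 or 3, at log2 fold changes that all stayed below 0. The call was also lost with the replicate number as a block (adjusted p = 0.0675) and when FPKM was tested with limma at a pseudocount of 0.1 or 1 (0.074 and 0.0741).

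Apoc2 (11813), which encodes the lipase activator, was at 503, 272 and 378 CPM in scramble and 268, 342 and 341 CPM in knockdown livers. The groups overlapped. The log2 fold change of -0.28 (SE 0.23) was -0.04 without scramble liver 1 and -0.49 without scramble liver 2. Apoc1 (11812), a small exchangeable apolipoprotein, was at 1601, 1946 and 2020 CPM in scramble and 1402, 2016 and 2287 CPM in knockdown livers, with a log2 fold change of 0.04 (SE 0.22). Apoe (11816) was at 10827, 14006 and 12653 CPM in scramble and 10006, 15633 and 16421 CPM in knockdown livers, with a log2 fold change of 0.17 (SE 0.24). For both, knockdown liver 1 was the lowest of the 6 livers and the other knockdown livers lay near or above the highest scramble liver. Without knockdown liver 1 the log2 fold change was 0.21 for Apoc1 and 0.36 for Apoe, and without knockdown liver 3 it was -0.13 and 0.03.

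Livers of the same group differed in a shared way across these genes. Scramble liver 1 was the highest scramble liver for Mttp, Apoa4, Apoc2 and Apoc3 and the lowest for Apoa1, Apoa2, Apoa5, Apoc1 and Apoe. Scramble liver 2 was the lowest for Mttp, Apoa4, Apoc2 and Apoc3 and the highest for Apob, Apoa1, Apoa2, Apoa5 and Apoe. Among knockdown livers, liver 1 was the lowest for 8 of the 10 genes, the exceptions being Apob and Apoa4. In log2 CPM relative to the scramble mean, knockdown liver 1 stood at -0.66 for Apoa2, -0.40 for Apoc1 and -0.31 for Apoe, where knockdown livers 2 and 3 stood between 0.09 and 0.40. The part that the composition of knockdown liver 1 plays in these values was not tested.

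**Figure D3:**
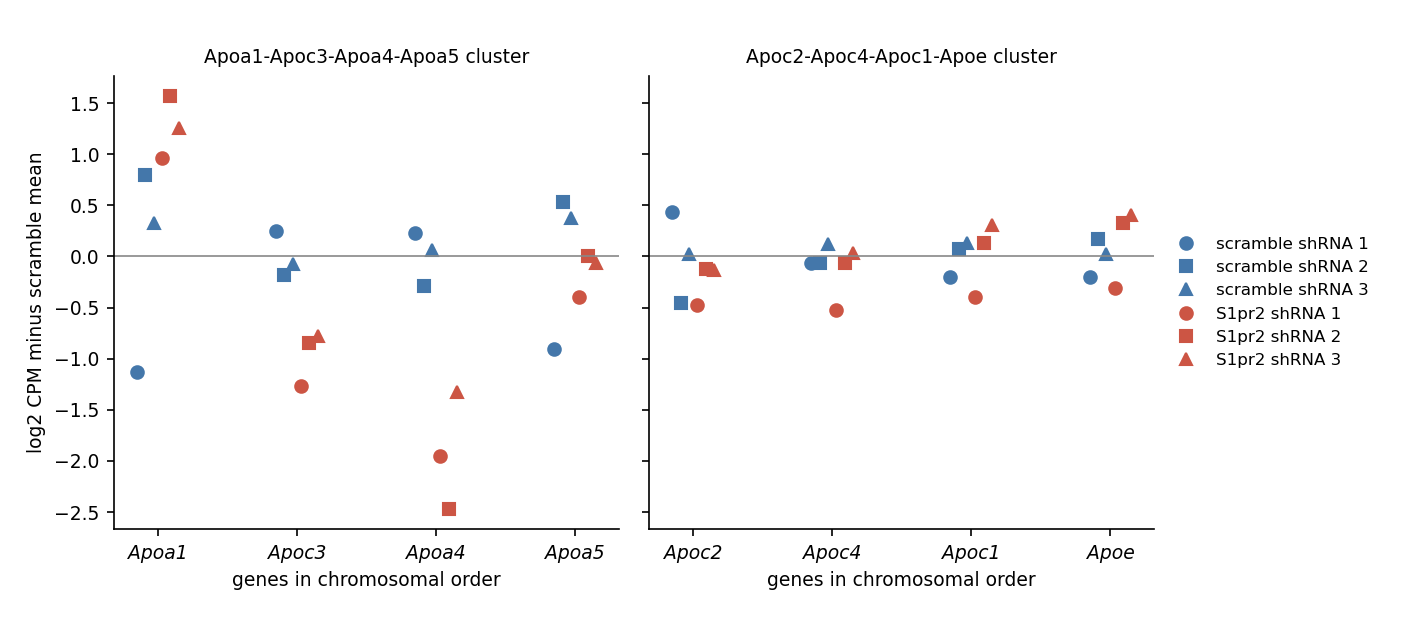
Log2 CPM minus the scramble mean (vertical axis) in each of the 6 livers, for the neighbouring genes of chromosome 9 (left panel) and chromosome 7 (right panel) in chromosomal order. On the left, the S1pr2 shRNA livers lie above 0 for Apoa1 (0.97 to 1.57), below 0 for Apoc3 and Apoa4, and within the scramble range for Apoa5; on the right, the points of all 4 genes overlap.

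In the chromosome 9 cluster, Apoc3 and Apoa4 were called lower, whereas Apoa1, above 0 in each knockdown liver, and Apoa5 were not called. Knockdown livers 1 to 3 stood at 0.97, 1.57 and 1.26 log2 units relative to the scramble mean for Apoa1, at -1.27, -0.84 and -0.78 for its neighbour Apoc3, and at -1.95, -2.47 and -1.33 for Apoa4. The ratio of Apoa1 to Apoc3 in FPKM was 0.289, 1.48 and 0.994 in scramble and 3.53, 4.00 and 3.08 in knockdown livers. The ratio of Apoa1 to Apoa4 was 1.17, 6.38 and 3.61 in scramble and 22.7, 49.1 and 18.0 in knockdown livers. Neither ratio overlapped between the groups, although each also varied widely among scramble livers. The Apoa4 window printed above holds the exact string CAAAGTNCA and the Apoa1 window does not, and no Apoc3 window was at hand. Looser forms of the motif were not searched, and its part in these differences was not tested. In the chromosome 7 cluster, Apoc2, Apoc4, Apoc1 and Apoe all overlapped between the groups; Apoc4, a further apoC gene, stood at -0.17 (SE 0.18; adjusted p = 0.633).

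Levels of different genes can be set side by side only per transcript length, in FPKM. In scramble livers Apoe led with 9263 ± 972 FPKM (SD, n = 3), above every other gene in each liver. Apoc3 at 5902 ± 1071, Apoa1 at 5007 ± 2725 and Apoc1 at 4344 ± 478 FPKM came next, and the range of Apoa1 spanned both of the others. Apoa2 at 2729 ± 210 and Apoa4 at 1485 ± 299 FPKM followed without overlap between them. At the low end were Apoc2 at 520 ± 167, Apoa5 at 366 ± 159, Apob at 288 ± 49.5 and Mttp at 187 ± 30.1 FPKM, of which Apoc2, Apoa5 and Apob overlapped with their neighbours and Apob stayed above Mttp. In knockdown livers Apoa1 at 11747 ± 1582 and Apoe at 11417 ± 2147 FPKM overlapped at the top. Apoc3, at 3335 ± 370 FPKM, lay below each knockdown value of Apoc1 (4892 ± 899 FPKM), whereas in scramble livers it lay above each value of Apoc1. Apoa4 at 454 ± 177 FPKM overlapped with Apoc2 at 470 ± 29.7 and Apoa5 at 337 ± 22.5 FPKM. Apob at 210 ± 28.5 FPKM stayed below them and Mttp at 37.3 ± 0.823 FPKM was the lowest. Together the 10 genes took 2.81, 3.42 and 3.16% of all counts in scramble livers and 3.12, 3.82 and 3.88% in knockdown livers.

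The rows found by symbol do not hold all reads of Apoa2 and Apoe. Further RefSeq transcripts of these genes were listed as rows of their own, under a transcript accession and without a symbol. The Apoa2 symbol row held 44.4, 46.1 and 44.5% of the summed Apoa2 counts in scramble and 44.4, 45.5 and 45.9% in knockdown livers. The shares overlapped between the groups. The symbol row thus understates the level of Apoa2, whereas the log2 fold change summed over rows, -0.11 (SE 0.23), lay close to that of the symbol row. Summed Apoa2 stood at 6082 ± 430 FPKM in scramble and 6168 ± 1277 FPKM in knockdown livers (SD, n = 3 each). Its range overlapped that of Apoc3 in scramble livers and lay above that of Apoc3 in knockdown livers. For Apoe the symbol row held 96.7 to 98.5% of the counts and the summed log2 fold change was 0.17 (SE 0.24).

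**Figure D4:**
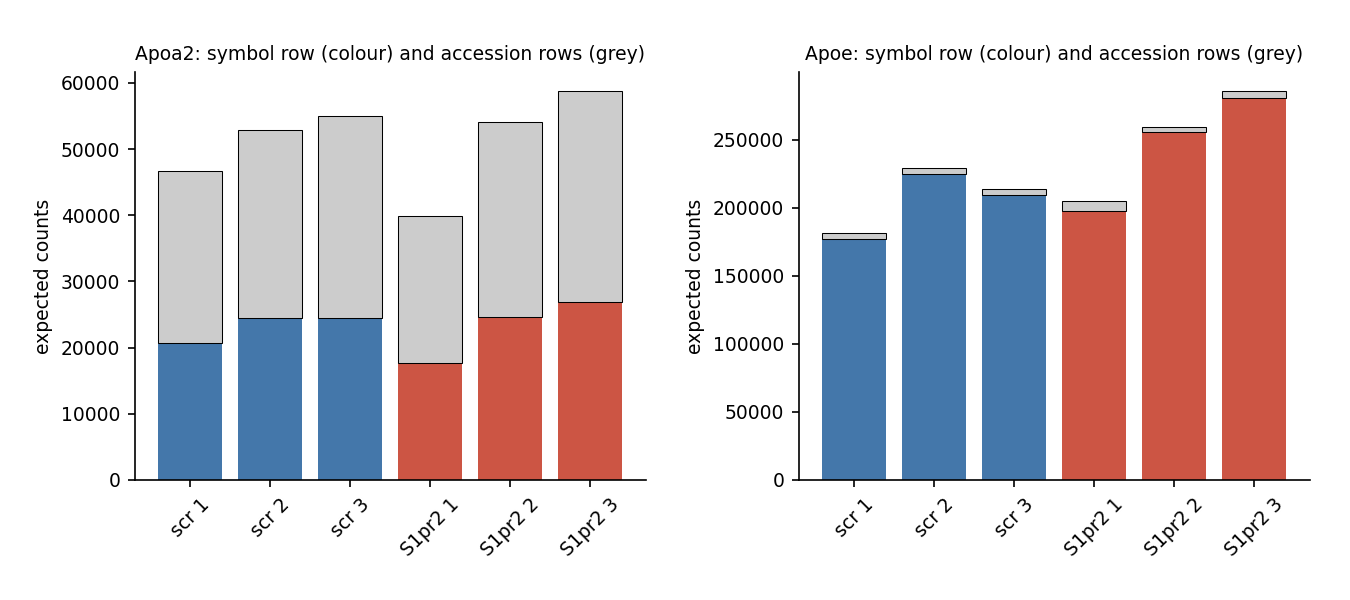
Expected counts (vertical axis) of Apoa2 and Apoe in scramble (scr, blue) and S1pr2 shRNA (red) livers, split into the row that carries the symbol (colour) and the rows listed by transcript accession (grey). The symbol row of Apoa2 holds 44.4 to 46.1% of the sum in each of the 6 livers, and that of Apoe 96.7 to 98.5%.

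One of the minor Apoe transcript rows differed more than the gene. It held 400, 436 and 345 counts in scramble livers and 3070, 708 and 1261 counts in knockdown livers, a log2 fold change of 1.91 (SE 0.47) without overlap between the groups. Another held 215, 185 and 207 CPM in scramble and 155, 142 and 154 CPM in knockdown livers, a log2 fold change of -0.43 (SE 0.12), also without overlap. Neither was called (edgeR adjusted p = 0.0692 and 0.0639), and both were singled out after their values were seen. These counts are estimates, since reads shared by transcripts of 1 gene are divided by the counting program, and Apoa2 and Apoe had fractional counts in all 6 libraries. The other 8 genes had whole counts throughout.

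The genes whose profile over the 6 livers was most like that of each called gene were ranked by the root mean square (RMS) difference of log2 CPM, each gene centred on its scramble mean, among 8779 genes. For Mttp these were Morc4 (RMS difference 0.247), Gstt3 (0.329) and Zfp982 (0.343). For Apoa4, Dynlt3 (0.244), a dynein light chain, and Cyp2c39 (0.262), a cytochrome P450, were among the most alike. For Apoc3 they were Mocs2 (0.0584), of molybdenum cofactor synthesis, Serpina3m (0.0617), a serine protease inhibitor, and Prps1 (0.0624), of nucleotide synthesis. Zfp982, Mocs2, Serpina3m and Prps1 had fractional counts in all 6 libraries and Cyp2c39 in 5, so their values are uncertain. The 10 lipoprotein genes were left out of the ranking, and the measure includes the difference between the groups on which these genes were called.

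Genes that supply lipid to VLDL or act beside MTP were examined as a list of 17. Of these 17 tested, 3 fell, 0 rose and 14 did not pass, beside 7.66% of all genes called. Ces1d, a carboxylesterase that mobilises stored triglyceride, fell from 182 ± 48.4 to 50.8 CPM (-1.84 on the log2 scale, SE 0.26; edgeR adjusted p = 0.0103), with fractional counts in all libraries. Tm6sf2, needed for full lipidation of VLDL, fell from 56.2 ± 18.2 to 20.5 CPM (-1.46, SE 0.25, adjusted p = 0.0190). Dgat2, which completes triglyceride, fell from 539 ± 33.0 to 313 CPM (-0.78, SE 0.16, adjusted p = 0.0253). Acsl1, which activates fatty acids, had a log2 fold change of -0.78 (adjusted p = 0.0561) and Smlr1 of -0.64 (adjusted p = 0.0923). The groups did not overlap for 9 of the 17, beside 31.9% of all genes, and the list's median log2 fold change was -0.13.

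In the receptor and regulator list, 2 of 13 tested genes fell and 1 rose, with a median of -0.25, beside 4.64% of all genes called lower and 3.02% called higher. Abca1, the exporter that lipidates apoA-I, fell from 139 ± 24.3 to 74.7 CPM (-0.90, SE 0.15, edgeR adjusted p = 0.0142), in the livers where the Apoa1 transcript itself stood higher. Lrpap1, a chaperone of LDL receptor family members, fell from 37.0 ± 2.17 to 26.2 CPM (-0.50, SE 0.10, adjusted p = 0.0239). Abcg1, a cholesterol exporter, rose from 3.73 ± 1.45 to 8.38 CPM (1.17, SE 0.29, adjusted p = 0.0498). Apobr, a macrophage receptor for apoB, did not pass, with a log2 fold change of 0.95 (adjusted p = 0.262). Among transcriptional regulators 2 of 28 tested rose and 0 fell, with a median of -0.11, a share near the 7.66% of all genes called in either direction: Nr2f2 (COUP-TFII) went from 26.9 ± 1.64 to 40.1 CPM (0.58, SE 0.11, adjusted p = 0.0240, fractional counts in all libraries) and Foxa1, a forkhead factor, from 16.1 ± 3.13 to 26.2 CPM (0.70, SE 0.17, adjusted p = 0.0450). Cebpb had a log2 fold change of -0.74 (adjusted p = 0.286) and Nr1d1 of 0.68 (adjusted p = 0.173). Nr2f1 and Usf1 were not tested; the reads of Usf1 lay on rows without a symbol, which summed to a log2 fold change of 0.00 (SE 0.129).

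In the remaining lists no gene passed the edgeR test. Over all 12230 genes tested, edgeR called 7.66%, DESeq2 called 1466 genes and limma-voom 854. With lists this short, 0 calls therefore say little about them. For the COPII coat and cargo receptors, which carry lipoproteins out of the endoplasmic reticulum, 0 of 17 passed, with 4 at an unadjusted p under 0.05, 1 called by DESeq2 and 0 by limma-voom. Sort1, a sorting receptor, had a log2 fold change of 0.93 (adjusted p = 0.105) and Sar1a, a COPII GTPase, of -0.41 (adjusted p = 0.0552). For other apolipoproteins 0 of 9 passed, with 0 at an unadjusted p under 0.05 and 0 by DESeq2 or limma-voom. Apoh stood at -0.39 (adjusted p = 0.256) and Saa1, an acute-phase apolipoprotein with fractional counts, at -0.44 (adjusted p = 0.684). For Apob mRNA editing 0 of 4 passed, with 0 at an unadjusted p under 0.05 and 0 by DESeq2 or limma-voom. The editing enzyme Apobec1 stood at 0.33 (adjusted p = 0.594) and its cofactor Rbm47 at -0.08 (adjusted p = 0.803). For plasma lipases and their inhibitors 0 of 10 passed, with 3 at an unadjusted p under 0.05, 3 called by DESeq2 and 0 by limma-voom. Angptl8, a lipase inhibitor, stood at -1.37 (adjusted p = 0.275) and Lipg, endothelial lipase, at -1.08 (adjusted p = 0.0878). The medians of these 4 lists were -0.12, -0.13, -0.03 and -0.03, beside 0.01 over all genes.

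**Figure D5:**
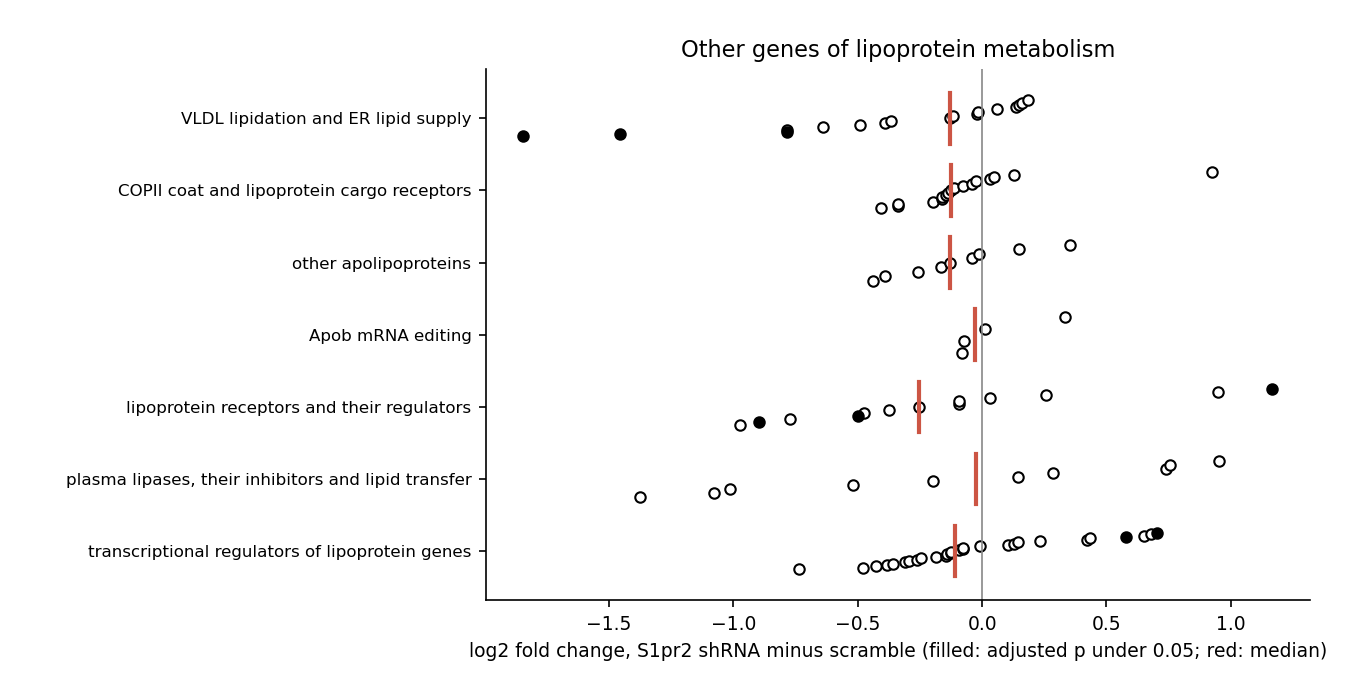
Log2 fold change (S1pr2 shRNA minus scramble, edgeR) of each tested gene in 7 lists of lipoprotein metabolism; filled points have an adjusted p under 0.05 and red bars mark each list's median. The 8 filled points are Ces1d, Tm6sf2, Dgat2, Abca1, Lrpap1, Abcg1, Nr2f2 and Foxa1, and the medians lie between -0.25 and -0.03.

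Of these 8 calls, 7 were lost when some liver was left out. Ces1d was called without any 1 liver (edgeR adjusted p at most 0.0481). Tm6sf2 was lost without scramble liver 3 (0.0564) or knockdown liver 1 (0.0638) or 2 (0.0812), and Abca1 without knockdown liver 2 (0.074) or 3 (0.0508). Dgat2 (up to 0.0792) and Nr2f2 (up to 0.0917) were lost without any liver but knockdown liver 1, Lrpap1 (up to 0.0844) without any but scramble liver 1, Abcg1 (up to 0.143) without any but scramble liver 3, and Foxa1 (up to 0.146) without any but scramble liver 2. The log2 fold changes kept their direction in each case. Abcg1 was also lost with upper-quartile factors (0.0517), and on FPKM with a pseudocount of 0.1 or 1 both Lrpap1 (0.0725 and 0.0729) and Abcg1 (0.0564 and 0.0558) were lost.

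Markers of other liver cells were summed for each liver. In bulk tissue fewer cells of a type and less RNA per cell cannot be told apart. Over 12 endothelial markers the summed level was 330 to 370 CPM in scramble and 407 to 453 CPM in knockdown livers. Of the 12, 4 were called higher. Among all genes tested, 3.02% were called higher and 7.66% in either direction. The 13 macrophage markers summed to 171 to 412 CPM in scramble and 247 to 512 CPM in knockdown livers, and 0 were called. Macrophages also make Apoe, Apoc1 and Apoc2. The macrophage sum was the highest in knockdown liver 1, which also had the lowest hepatocyte sum. Stellate cell markers (211 to 499 against 323 to 561 CPM) and cholangiocyte markers (27.9 to 55.0 against 45.6 to 105 CPM) overlapped. Lymphocyte markers summed to 0.735 to 3.09 CPM in scramble and 3.98 to 6.73 CPM in knockdown livers, without overlap. Only 1 of these 8 markers passed the count filter and it was not called, so the sum rests on few counts. The groups also did not overlap for 31.9% of all genes tested. Of 12 hepatocyte markers 0 were called. Albumin stood at 113596 ± 13620 CPM in scramble and 75486 ± 16172 CPM in knockdown livers (SD, n = 3 each). Without albumin the hepatocyte sums were 72600 to 76930 and 62120 to 72950 CPM. Enterocytes express Mttp, Apob and Apoa4 too. Of their 7 markers, Sis, Alpi and Cdx2 were listed in no library, Vil1, Lct and Cdx1 reached at most 0.367 CPM, and Fabp2 made up nearly the whole sum of 19.7 to 44.1 CPM. The part of these cell types in the differences of the 10 genes was not tested.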

How the data were processed

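Total RNA from snap-frozen livers was sequenced on a DNB platform. The deposited tables give, per gene, RSEM expected counts, which the authors did not scale to depth, and FPKM, which the authors scaled to transcript length and depth, per the file headers. They also give a transcript length column. HISAT2, Bowtie2, RSEM 1.2.12, DESeq2 and the mm9 build are named in the submitters' processing notes, without their roles; neither read filters nor strand handling is stated there, so antisense overlaps cannot be separated. Genes not listed in a library were taken as 0. Between 19 and 23 rows per library had no symbol (0.204 to 0.255% of counts); all 23 rows listed by accession matched a RefSeq gene.

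Expected counts were rounded to whole numbers, filtered with filterByExpr (minimum count 10; 12230 genes left), scaled by TMM and compared with the two-sided quasi-likelihood F test of edgeR 4.0.16 in R 4.3.3, with group as the only term. P-values were adjusted by Benjamini-Hochberg across the whole table and genes called under 0.05. The common biological coefficient of variation was 20%. The SE of an edgeR log2 fold change was back-calculated as its absolute value divided by the square root of the F statistic. Log2 CPM used a prior count of 2. The fit was tested on simulated counts. The 10 genes and all lists were chosen with earlier results of these data known, and list counts support no independent claim. Named genes were the 10 genes, S1pr2, the called genes of each list (up to 6) with up to 2 of the largest uncalled changes, and for each called gene the 3 most alike genes with at least 5 CPM; P4hb, Apoc4, Usf1, Apoe transcript rows and markers were named besides. A few genes that meet the rule are left out of the text. Alternatives were DESeq2 size factors, upper-quartile factors, no count filter, the DESeq2 1.42.0 Wald test, limma-voom (limma 3.58.1), a replicate block, limma on log2(FPKM + 0.1) or log2(FPKM + 1) for mean FPKM of 0.1 or more, and each liver left out. Adding accession rows to their gene was chosen after seeing the data. Replicates are numbered as in the labels.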

Additional observations from a re-analysis of the deposited data

How the results depend on the processing

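The count of genes called (937) was 1466 with the DESeq2 Wald test and 231 to 643 with 1 liver left out, the lowest without knockdown liver 2. DESeq2 called 5 of the 10 lipoprotein genes in place of 3, adding Apob (adjusted p = 0.00336) as lower and Apoa1 (0.0392) as higher, and 15 list genes in place of 8. With 1 liver left out, 1 to 6 list genes were called. No called lipoprotein gene changed direction under any alternative run. The S1pr2 log2 fold change was -0.90 (limma adjusted p = 0.0677) and -0.54 (0.0684) on FPKM with a pseudocount of 0.1 and 1, and -1.29 to -0.95 with 1 liver left out. The cause of these shifts was not tested. The labels do not say whether replicate numbers pair the livers. Same-numbered livers correlated at -0.06, 0.22 and -0.12 in their deviations from the group means. Differently numbered livers correlated at -0.301 to 0.301. With only 3 livers centred on each group mean, these values cannot decide whether the livers were paired. With the replicate number as a block, S1pr2 stood at -1.115 (adjusted p = 0.0684), 808 genes and 2 of the 10 lipoprotein genes were called, and Apoc3 and Abcg1 lost their calls. Adding the accession rows to their genes, chosen after seeing the data, left 936 genes and 3 lipoprotein genes called. S1pr2 rested on only 36 to 110 counts per library. The SE of its log2 fold change, 0.24, lay within the range of the lipoprotein genes, from 0.16 for Mttp to 0.45 for Apoa1.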

Other observations

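In scramble livers, Mttp, Apoa4, Apoc2 and Apoc3 were highest in liver 1 and lowest in liver 2. The same order appeared for Tat, a hepatocyte enzyme in the marker list, at 1898, 672 and 838 CPM in scramble livers 1 to 3. It was not particular to Tat: the hepatocyte markers Ass1, Cyp3a11, Hnf4a and Trf shared it, and the remaining ones did not. Knockdown livers 1 to 3 stood at 487, 577 and 632 CPM for Tat, which was not called (log2 fold change -1.01, SE 0.39, edgeR adjusted p = 0.164). Serpina1c, a plasma protease inhibitor gene, had the order of Apoa1, Apoa2, Apoa5 and Apoe in scramble livers, at 9735, 22916 and 15765 CPM. It stood at 9311, 15704 and 13879 CPM in knockdown livers. Among the hepatocyte markers Fgb shared that scramble order, at 2383, 4109 and 3729 CPM, and the remaining ones did not. Tat and Serpina1c were singled out after their values were seen.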
